A study of Mus musculus with 2 samples.

Results

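The ATF genes encode 8 basic leucine zipper (bZIP) transcription factors, and they were examined for islands of Brg1 ChIP-seq signal in a mouse medulloblastoma. The members are Atf1, Atf2, Atf3, Atf4, Atf5, Atf6, Atf6b and Atf7, 8 of the 21631 protein-coding genes on the chromosomes that carry islands. They were taken up because several genes named Atf had islands (5 of 10, with Atf7ip and Atf7ip2, which bear the name without being ATF factors, and which had none). Their number of islands is therefore a description of the choice, and no test was made on it. An island was assigned to a gene when any part of it lay in the gene or within 5 kb of it, and was called distal when it lay further away but within 50 kb.

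The tumours arose spontaneously in CAG-CreER, Rosa26-SmoM2 mice, in which Cre recombinase under the broadly active CAG promoter can switch on SmoM2, an active form of the Hedgehog transducer Smoothened. Chromatin from dissociated tumour cells was precipitated with the J1 antibody, which recognises Brg1 (encoded by Smarca4) and its paralogue Brm (Smarca2), the alternative ATPases of the BAF remodelling complex, so either may underlie an island. The series has 1 ChIP library and 1 input library. The input is not analysed here, the number of animals behind the ChIP library is not given in the sources used here, and there is no control group or replicate. The list has 5727 islands with a median width of 2200 bp and a median of 68 reads, and it names only regions that the caller accepted, so the absence of an island does not show the absence of Brg1. All 6 genes checked for granule neuron progenitors and Hedgehog medulloblastoma (Atoh1, Barhl1, Zic1, Gli1, Mycn and Ccnd1) had an island. Of 10 genes of other cell types, 2 had one (Cdh5 and Mbp). The share over all protein-coding genes was 16.9%, and an island is not a measure of expression.

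ATF factors bind DNA as dimers through a basic region and a leucine zipper, many of them at the cyclic AMP response element (CRE), and pair with each other or with JUN, FOS, CEBP and CREB proteins. Most are known as effectors of signals that reach the nucleus from elsewhere. Atf2 and Atf7 are close relatives activated by stress-responsive MAP kinases, Atf1 is a CREB relative phosphorylated downstream of cyclic AMP, and Atf3 is induced rapidly by many stresses. Atf4 and Atf5 are made preferentially when phosphorylation of eIF2 slows general translation, and Atf6 and Atf6b are endoplasmic reticulum membrane proteins whose cleaved parts enter the nucleus when unfolded proteins accumulate.

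The 250 bases before the RefSeq start are shown for the 4 members whose listed start lay inside an island, and for Atf1, whose promoter was the richest in CpG of all the members with a listed start and had no island. Sequences are from RefSeq on GRCm38.p6 (mm10), 5′ to 3′ on the gene's strand, and capitals mark every match on either strand to the 7 motifs described further on.
Atf2, chr2:73892640-73892889, minus strand: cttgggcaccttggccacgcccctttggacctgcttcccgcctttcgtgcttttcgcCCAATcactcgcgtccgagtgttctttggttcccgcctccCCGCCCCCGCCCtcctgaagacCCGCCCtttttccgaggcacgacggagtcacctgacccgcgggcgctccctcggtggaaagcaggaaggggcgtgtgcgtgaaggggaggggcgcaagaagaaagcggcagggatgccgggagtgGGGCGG
Atf7, chr15:102625465-102625714, minus strand: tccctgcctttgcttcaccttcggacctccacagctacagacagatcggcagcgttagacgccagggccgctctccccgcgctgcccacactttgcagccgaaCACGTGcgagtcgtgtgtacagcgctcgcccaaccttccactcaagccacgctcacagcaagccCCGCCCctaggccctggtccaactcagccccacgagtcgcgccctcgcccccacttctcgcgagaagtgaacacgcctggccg
Atf3, chr1:191183334-191183583, minus strand: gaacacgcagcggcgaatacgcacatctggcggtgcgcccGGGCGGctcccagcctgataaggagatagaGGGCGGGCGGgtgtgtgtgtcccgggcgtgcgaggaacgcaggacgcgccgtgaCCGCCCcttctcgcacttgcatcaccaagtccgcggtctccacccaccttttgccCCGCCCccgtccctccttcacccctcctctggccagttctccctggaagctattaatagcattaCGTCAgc
Atf4, chr15:80254934-80255183, plus strand: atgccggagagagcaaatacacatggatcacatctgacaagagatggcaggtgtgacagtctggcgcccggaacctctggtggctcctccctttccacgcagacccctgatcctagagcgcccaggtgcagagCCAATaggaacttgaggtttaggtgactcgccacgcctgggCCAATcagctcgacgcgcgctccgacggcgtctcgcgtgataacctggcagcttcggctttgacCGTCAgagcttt
Atf1, chr15:100227609-100227858, plus strand: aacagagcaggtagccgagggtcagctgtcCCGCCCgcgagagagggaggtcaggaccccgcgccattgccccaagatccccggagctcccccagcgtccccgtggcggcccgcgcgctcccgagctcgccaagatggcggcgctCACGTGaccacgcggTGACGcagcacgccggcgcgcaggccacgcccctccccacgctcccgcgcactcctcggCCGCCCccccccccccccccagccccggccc

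Islands lay in or near Atf2, Atf3, Atf4, Atf6 and Atf7, and none lay within 5 kb of Atf1, Atf5 or Atf6b. These 5 of 8 members (62.5%) stand beside 16.9% of all protein-coding genes by the same rule (3657 of 21631, Wilson 95% interval 16.4 to 17.4). As the members were chosen on this count, nothing is read from the gap. Long genes meet the rule more easily. Among genes within 2-fold of each member's length, the share with an island ran from 9.54% for the length of Atf4 (2.36 kb) to 34.9% for that of Atf6 (164 kb). In all, 7 islands were assigned to the 5 genes, with 50 to 118 reads (median 63) over 1400 to 3600 bp. Each of the 5 genes had an island across one of its ends, and the other 2 islands lay inside Atf7.

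**Figure D1:**
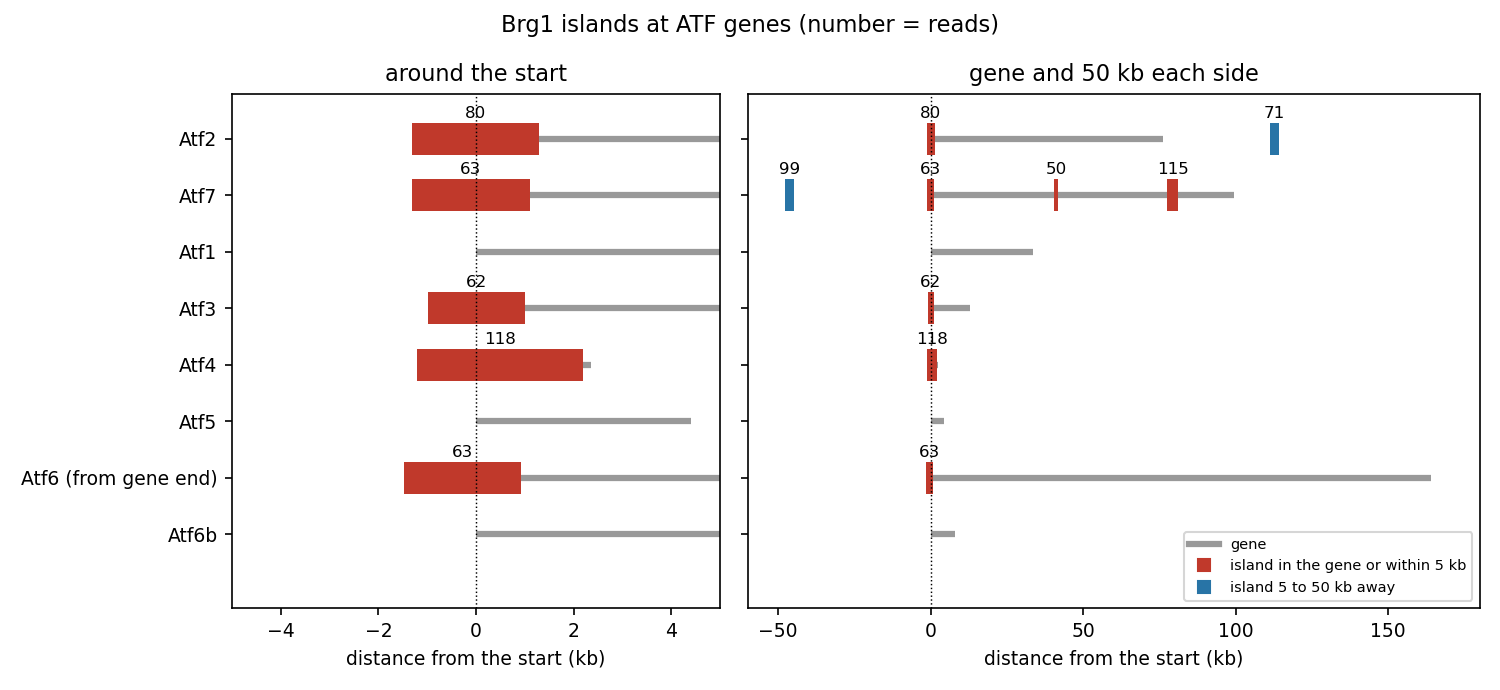
Islands at the 8 ATF genes, by distance in kb from the listed start (0, dotted line), with genes drawn to the right; left, 5 kb either side; right, the gene and 50 kb around it. Bars are islands (red, in the gene or within 5 kb; blue, distal), numbers are reads, and grey lines are genes; Atf6 is drawn from its higher-coordinate end and Atf5 from the outer of its 2 listed starts. Islands straddle the start of Atf2, Atf3, Atf4 and Atf7 and the higher-coordinate end of Atf6. Islands more than 50 kb from the gene are not drawn, so none is shown for Atf1, Atf5 or Atf6b.

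RefSeq gave a start for 7 of the 8 members. In 4 of these 7, Atf2, Atf3, Atf4 and Atf7, the start lay inside an island, beside 8.57% of the 17274 protein-coding genes with a listed start. As the members were chosen for having islands, nothing is read from this gap either. Not every gene with an island has it at the start. Of 2861 genes with an island in the gene or within 5 kb and a listed start, the start was inside an island in 1481 (51.8%). The same held for all 4 members with an island and a listed start, a small number that was not tested. The Atf2, Atf3 and Atf7 islands were nearly centred on the start, with 49.8%, 50.6% and 45.6% of their width on the transcribed side. The Atf4 island had 64.3% of its width there. Across the 1481 genes the median was 57.3% (interquartile range 39.4 to 74.1), and all 4 members fell within that range.

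Atf2 and Atf7, the members activated by the stress kinases JNK and p38, each had an island at the start and a distal one. Atf2 (chromosome 2, 73816509 to 73892677, minus strand) had 80 reads in an island from 73891344 to 73893943 (exact Poisson 95% interval 63.4 to 99.6, covering counting error only). That island reached from 1304 bp before the start to 1295 bp after it. No other protein-coding gene lay within 5 kb of it, the nearest being Atp5g3, an ATP synthase subunit gene, at 14504 bp. Atf7 (chromosome 15, 102525946 to 102625464, minus strand) had 63 reads (48.4 to 80.6) in the island at its start, 102624370 to 102626769. The reach was much the same, from 1305 bp before to 1094 bp after.

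Atf7 was the member with the most islands, 3 in the gene. Beside the one at the start, an island of 50 reads (37.1 to 65.9; 102583570 to 102584969) began 40.5 kb into the gene and one of 115 reads (94.9 to 138; 102544370 to 102547969) began 77.5 kb into it. Exons and introns were not told apart with the annotation used here. Reads per 200 bp, a density that allows for width in part, were 5.25 at the start (4.03 to 6.72), 7.14 at the first inner island (5.3 to 9.42) and 6.39 at the second (5.27 to 7.67). The intervals of all 3 overlap, and a difference in density was not tested. The 115-read island was also the widest of the 3, at 3600 bp. Among the 3657 genes with an island, 280 (7.66%) had 3 or more and 2863 (78.3%) had 1. At 99.5 kb Atf7 is a long gene, and 28.3% of genes within 2-fold of its length had at least 1 island. The share with 3 or more at that length was not computed.

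Both distal islands lay close to another gene. The Atf2 one (chromosome 2, 73778544 to 73781343, 71 reads, interval 55.5 to 89.6) was 35.2 kb past the far end of Atf2 and 3198 bp from the listed start of Chn1, which encodes a GTPase-activating protein for Rac. The Atf7 one (chromosome 15, 102670170 to 102673369, 99 reads, interval 80.5 to 121) was 44.7 kb before the gene and held the start of Atp5g2, an ATP synthase subunit gene. Distance alone therefore does not tie either island to the ATF gene. Of all protein-coding genes, 22.1% had an island at this range, so 2 of 8 members is close to the background.

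Atf1, the CREB relative (chromosome 15, 100227859 to 100261248, plus strand), had no island within 50 kb. The nearest was a narrow one of 38 reads over 800 bp, 70.7 kb past its end and between Mettl7a1 and Mettl7a3. On the inner side of the 50 kb limit, the furthest distal island was that of Atf7 at 44.7 kb. The surroundings of Atf1 were not poor in islands: 19 lay within 1 Mb, the most for any member, where the members ranged from 6 to 19 and all protein-coding genes had a median of 6 (interquartile range 2 to 10). Atf1, Atf4 and Atf7 lie on the same chromosome, and only Atf1 of these 3 was without an island.

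Atf3, the stress-induced member (chromosome 1, 191170296 to 191183333, minus strand), had 62 reads (47.5 to 79.5) in an island of 2000 bp, 191182322 to 191184321. It reached from 988 bp before the start to 1011 bp after it. The count was the median of the 501 islands of that width (62, range 48 to 117). No other protein-coding gene lay within 5 kb, the nearest being Fam71a at 17505 bp.

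Atf4 carried the island with the most reads of any member, and its relative Atf5 carried none. Atf4 (chromosome 15, 80255184 to 80257545, plus strand) had 118 reads (97.7 to 141) over 3400 bp, 80253971 to 80257370, at percentile 91.9 of the list. The island covered the gene from 1213 bp before its start to 175 bp short of its end. That interval lies above those at the start of Atf3 (47.5 to 79.5) and Atf7 (48.4 to 80.6) and overlaps that of Atf2 (63.4 to 99.6). It also overlaps that of the inner Atf7 island of 115 reads (94.9 to 138), so the first rank of Atf4 is not clear. Of the 4 islands at member starts, that of Atf4 was also the widest. The density was 6.94 reads per 200 bp (5.75 to 8.31) at Atf4, 6.15 (4.88 to 7.66) at Atf2, 6.2 (4.75 to 7.95) at Atf3 and 5.25 (4.03 to 6.72) at Atf7, with overlapping intervals. Among the 198 islands as wide as that of Atf4 (median 94 reads, range 69 to 149), its percentile was 92.4. Mief1, which encodes a mitochondrial fission receptor, ended 599 bp before the island, and the start of Rps19bp1, on the opposite strand, lay 6936 bp beyond it. Both neighbours have their starts on the far side, so the start of Atf4 was the only listed protein-coding start that the island held.

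Atf5 (chromosome 7, 44812256 to 44816658, minus strand) has 2 listed starts, 1000 bp apart, and neither lay in an island. The nearest island was 75.6 kb away, with 60 reads (45.8 to 77.2), at the start of Med25, a Mediator subunit gene, and 75 bp from Fuz, a gene needed for cilia. Within 1 Mb of Atf5 there were 12 islands.

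The endoplasmic reticulum members also differed. Atf6 (chromosome 1, 170704457 to 170868585, start and strand not listed) had 63 reads (48.4 to 80.6) in an island across its higher-coordinate end, 170867670 to 170870069. The island extended 1484 bp beyond the gene. Count and width equalled those of the island at the start of Atf7. Its density of 5.25 reads per 200 bp was at percentile 12.5 of the list, and its count at percentile 11.8 of the 452 islands of that width (median 71, range 53 to 108). Dusp12, which encodes a phosphatase, has its downstream end 4118 bp from this island and its start 15471 bp away. Atf6b (chromosome 17, 34647146 to 34655074, plus strand) lay far from any island: the nearest was 295 kb away, near the heat-shock gene Hspa1b, a distance at percentile 68.7 of protein-coding genes. Over all protein-coding genes the median distance was 125 kb.

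**Figure D2:**
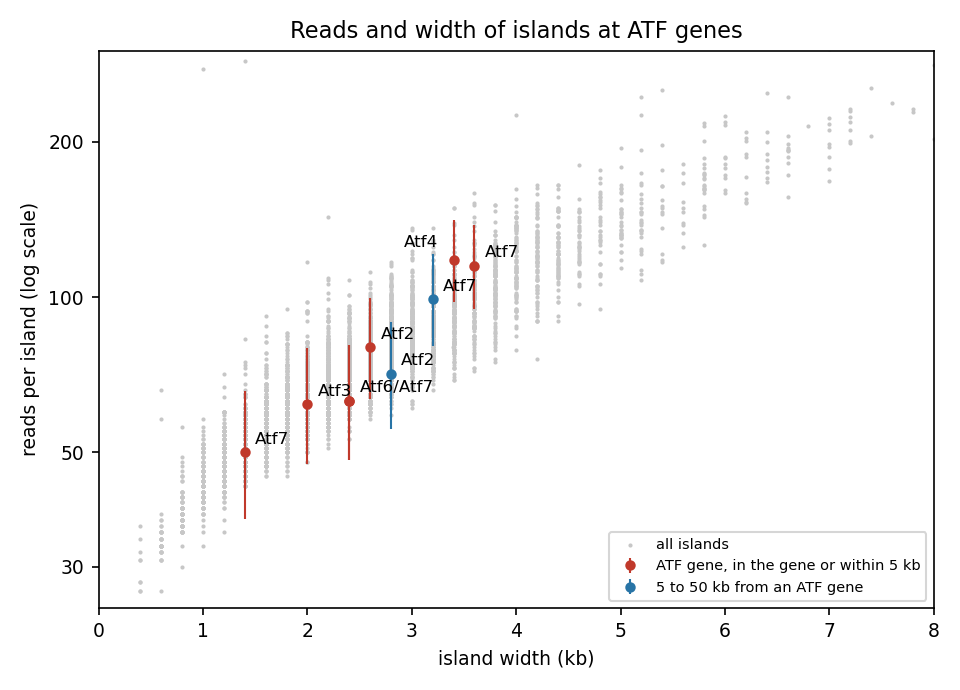
Reads per island (log scale) against island width in kb for all islands (grey), for the 7 islands in or within 5 kb of ATF genes (red) and for the 2 distal ones (blue); bars are exact Poisson 95% intervals, and 34 islands over 8 kb wide or over 300 reads are outside the plotted range. The ATF islands lie within the band of the whole list, Atf4 towards its upper edge and the start island of Atf7 and that of Atf6, which coincide, towards its lower edge.

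Set against the 1368 islands that hold a protein-coding start (median 72 reads, 2400 bp and 6.11 reads per 200 bp), the 4 at member starts spread from the lower to the upper part of the range. Their read counts lay at percentiles 31.1 (Atf3), 33.7 (Atf7), 62.9 (Atf2) and 90.2 (Atf4). Their densities lay at percentiles 52.9, 11.7, 51.5 and 79.0 in the same order. For scale, the islands at Gli1, a target of Hedgehog signalling, and at Actb had 131 and 217 reads, counts that do not allow for width. With the list limited to the 2938 islands of 68 reads or more, Atf2, Atf4 and Atf7 still had an island and Atf3 and Atf6 did not (3 of 8, beside 9.66% of protein-coding genes). Atf7 was kept by its inner island of 115 reads, since the island at its start has 63, so of the 4 islands at member starts those of Atf2 and Atf4 were left.

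The promoters of the 4 members with a listed start in an island had more CpG dinucleotides than the median of 10 over all 21037 promoters, and those outside islands lay on both sides of it. In the 250 bp before the start, Atf2 and Atf3 each had 24 CpG, Atf7 had 23 and Atf4 had 18. The median was 20 over the 1792 promoters of protein-coding genes whose start lay in an island and 9 over the 19245 others. Of the members without an island, Atf1 had 32 CpG and a G and C content of 77.6% (percentile 97.1 of 21037 promoters), Atf6b had 13, and Atf5 had 26 at its outer and 7 at its inner start. The values of members with and without an island thus overlap, and the Atf1 promoter, with more CpG than the 4 listed promoters in islands, lay in none.

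**Figure D3:**
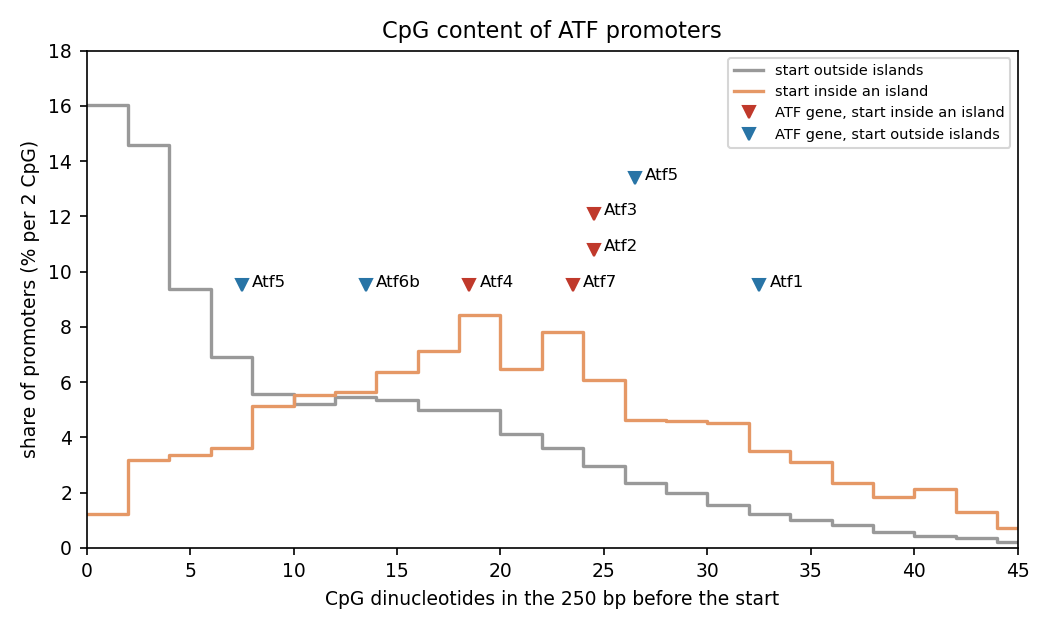
Number of CpG dinucleotides in the 250 bp before the start: lines give the share of promoters in steps of 2 CpG for starts inside (orange) and outside (grey) islands, and triangles mark the ATF promoters at their own value (their height has no meaning). The 4 ATF promoters in islands (red) lie at 18 to 24 CpG, and those outside (blue) spread from 7 to 32.

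The 7 motifs searched on both strands of the same 250 bp were the CRE (TGACGTCA), its core TGACG (which the CRE contains), the CCAAT box (CCAAT), the GC box (GGGCGG), the TATA box (TATAAA), the E-box CACGTG and the Gli site TGGGTGGTC. None of the 8 listed promoters of 7 members held the full CRE, the TATA box or the Gli site, which were in 1.94%, 11.7% and 0.162% of all 21037 promoters. The core TGACG was present once each in Atf1, Atf3 and Atf4 (20.4% of all promoters). In Atf3 it lay 7 to 3 bases before the start and in Atf4 12 to 8 bases before it, on the opposite strand in both. GC boxes were the most frequent matches, with 5 in Atf3 (of which 2 overlap), 4 in Atf2, 2 in Atf1, 1 in Atf7, 2 and 3 at the outer and inner starts of Atf5, and none in Atf4 or Atf6b. They were in 43.1% of all promoters, and in 67.0% of those whose start lay in an island. Atf4 instead had 2 CCAAT boxes, 117 to 113 and 76 to 72 bases before the start, and Atf2, Atf6b and the inner start of Atf5 had 1 each (35.7% of all promoters). The E-box was in Atf1, Atf6b and Atf7 (6.7% of all promoters). None of the 7 motifs was present in all 4 promoters in islands. These are matches of letters and do not show that a factor binds there.

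Other bZIP genes were set beside the ATF genes. Of 45 genes in 6 lists, 23 (51.1%) had an island in the gene or within 5 kb, beside the 16.9% of all protein-coding genes and the 62.5% of the ATF members. The lists were chosen with earlier results of these data known, so the counts are given without a test. The CREB list had 3 of 3: Creb5 with 78 reads, Creb1 with 68 (52.8 to 86.2) and Crem with 57. Creb5 shares the name but is a relative of Atf2 and Atf7. Thus Atf1 was without an island while its close relatives Creb1 and Crem had one. The JUN and FOS list, which also holds related genes of other names, had 7 of 11 with an island. JUN proteins pair with Atf2 and Atf3. Jun had 209 reads (182 to 239), Junb 172, Fosl2 165, Jund 125 and Fos 80 (63.4 to 99.6), beside 118 at Atf4. These counts are not scaled for width. The islands at Jun, Junb and Fosl2 were wider than that of Atf4, and that at Jund was narrower. Densities were not compared with that of Atf4. The CEBP list, partners of Atf4, had 3 of 6: Ddit3 with 96 reads, 249 bp from the gene, Cebpa with 59 and Cebpb with 57. The MAF and NFE2 list had 4 of 13, among them Bach2 with 112 reads, Nfe2l2 with 78 and Nrl with 60. The remaining bZIP list had 5 of 7, with 126 reads at Crebzf, 111 at Dbp, 76 at Xbp1 and 60 at Hlf. Of the CREB3 list, which like Atf6 are membrane-bound factors, 1 of 5 had an island, Creb3l1 with 65 reads.

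Among genes that act before or after ATF factors, the share with an island differed from list to list. The eIF2 kinases, eIF2 itself and the phosphatase subunits that act before Atf4 had 1 of 7, Ppp1r15a with 51 reads (38.0 to 67.1). The nearest islands to Eif2ak3 (the kinase PERK) and Eif2ak4 (GCN2) were 51.9 and 183 kb away. Of 20 genes known as targets of Atf4, 8 had an island, among them Ddit3 with 96 reads, Psph and Slc7a1 with 90 each and Ddit4 with 89. Asns and Trib3, well-known Atf4 targets, had none, with the nearest at 565 and 66.6 kb. The unfolded protein response list, which holds targets and regulators of Atf6, had 3 of 22 (13.6%), close to the 16.9% of all genes. These were Xbp1 with 76 reads, Hspa5 (the chaperone BiP) with 71 (55.5 to 89.6) and Hyou1 with 53, 3549 bp from the gene. Of the MAP kinases and their activators upstream of Atf2 and Atf7, 4 of 11 had an island: Mapk14 with 93 reads, Mapk10 with 89, Map2k6 with 74 and Mapk11 with 47, each with its listed start inside an island.

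**Figure D4:**
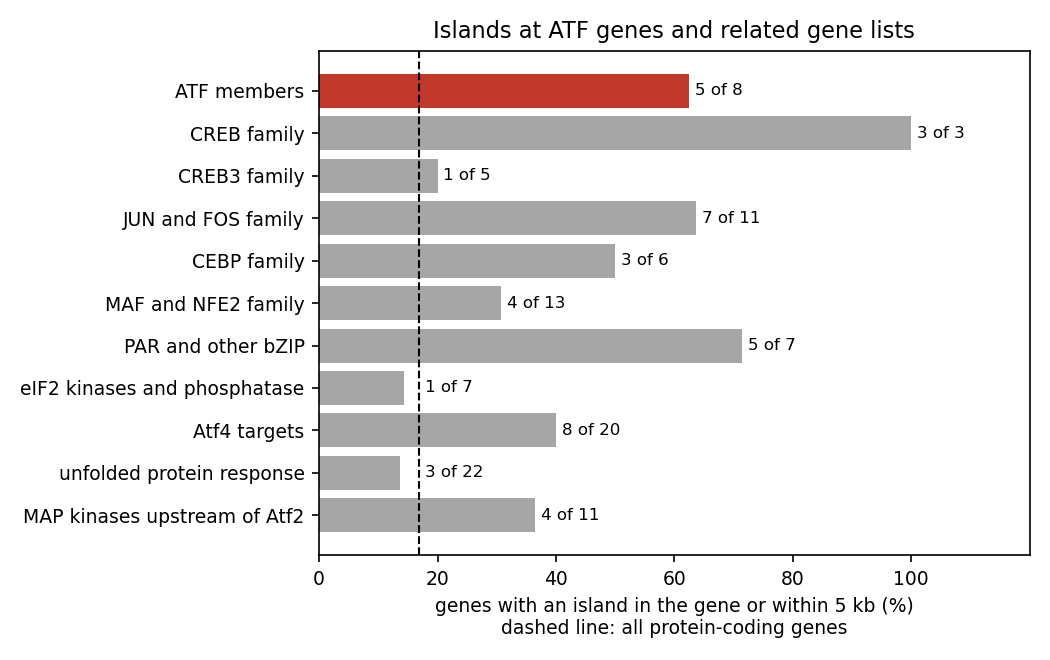
Share of genes (%) with an island in the gene or within 5 kb for the 8 ATF genes (red) and for each related list (grey), with the number of genes beside each bar; the dashed line is the 16.9% of all protein-coding genes. Bars for the ATF genes and for the CREB, JUN and FOS, CEBP and PAR lists reach 50% or more, and those for the CREB3, eIF2 and unfolded protein response lists end near the line; bars of few genes carry wide counting error.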

How the data were processed

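The submitters' processing notes list SICER 1.1, Bowtie 0.12.7 and Picard 1.127 among the tools, and mm10 and mm9 as builds, without their roles. The deposited list gives a whole number per island, taken from its values as the authors' read count per island (no column names are given); it is not scaled for depth or width, and the depth of the library is unknown. For SICER, its settings and whether it used the input are not stated in the sources at hand. The ends of islands were read as 0-based and inclusive and are given 1-based on mm10.

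Genes, starts and promoter sequences came from RefSeq tables on GRCm38.p6, restricted to chromosomes 1 to 19 and X. Starts were listed for 17274 of 21631 protein-coding genes, and Atf6 was not among them. Distances were computed with pandas 2.3.3 and NumPy 2.4.6, and the distance code was tested on simulated data (200 of 200 planted islands recovered). Intervals are exact Poisson for reads and Wilson for shares, at 95%, and cover counting error only. With 1 library and members chosen on these islands, no p-value was computed. The members and gene lists were chosen with earlier results of these data known. Genes named are the members, Atf7ip and Atf7ip2, neighbours of their islands, up to 4 genes per list by reads, fixed genes (Jun, Fos, Creb1, Ddit3, Xbp1, Eif2ak3, Eif2ak4, Hspa5, Gli1 and Actb) and markers of the tissue. A gene that this rule takes is not reported here. Asns and Trib3 were named after their values were seen. A planned comparison of protein sequences was not made. Alternatives changed the window, the islands counted, the part of the gene and the background.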

Additional observations from a re-analysis of the deposited data

How the results depend on the processing

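The 5 members with an island were Atf2, Atf3, Atf4, Atf6 and Atf7 with windows of 1 or 10 kb, with islands of at least 1 kb, without the densest islands, by island midpoint, and within 5 kb of the start (of either end for Atf6). Limited to islands of 68 reads or more, 3 members remained, Atf2, Atf4 and Atf7 (Atf7 by an inner island alone), since fewer islands were counted. The number of members with a distal island, 2 as reported, was 0 within 20 kb, 4 within 100 kb (Atf1 and Atf5 added) and 0 when islands within 5 kb of any protein-coding gene end were left out. The background of 16.9% became 11.3% over all annotated genes, 18.9% over genes of similar length (mean over members), 15.1% and 18.9% with windows of 1 and 10 kb, and 9.66% when limited to islands of 68 reads or more. The 101 genes of the related lists, each counted once, had 36 with an island, and between 24 and 40 under the alternatives, within 1.5 times the reported count. No paired analysis was possible because there is 1 ChIP library. Depth limits the comparison of islands: at 50 to 118 reads, the density intervals of the member islands overlapped, and differences were not tested. A gene below the caller's threshold is not listed.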
